A study of Mus musculus with 6 samples.

Results

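The genes of the AP-1 transcription factor family were followed in 4T1 cells, a line from a mouse mammary carcinoma, by RNA sequencing of 3 libraries from cells given BRQ and 3 from cells given the solvent DMSO. The study asked what inhibition of DHODH, an enzyme of pyrimidine synthesis in mitochondria, does to gene expression. Neither dose nor duration is stated in the labels, and the letters DHO in the titles of both groups are left unexplained there. Nothing in the labels says that libraries of a group came from separate cultures, so p-values measure the spread between these libraries, which may be technical. The members are the rows of the deposited FPKM table (fragments scaled to gene length and library size) whose symbol is Fos, Fosb, Fosl1, Fosl2, Jun, Junb, Jund, Atf3 or Jdp2, which makes 9 of 18057 genes. All 9 reached the mean of 1 FPKM that a gene needed to be tested, as did 10552 genes of the table.

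AP-1 is a dimer of basic leucine zipper (bZIP) proteins that binds the DNA element TGAGTCA and close relatives of it. FOS proteins cannot pair with themselves and act with a JUN partner, whereas JUN proteins also pair with each other. ATF3 and JDP2 pair with JUN proteins and often repress. Fos, Fosb, Jun, Junb and Atf3 are immediate early genes, whose transcripts appear fast after growth factors, cytokines or stress and are usually short-lived. FOSL1 is known in breast cancer lines for its part in invasion.

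The 6 libraries held 30872976 to 33971592 reads, recovered from the steps between FPKM values. The summed FPKM was 413739 to 420687 in the BRQ libraries and 374509 to 380140 in the DMSO libraries, and log2 fold changes had a median of 0.12 over all genes, a shift that every change below includes unless it is given relative to it. Epithelial transcripts were present in both groups at unequal levels. Their 8 markers summed to 1514 to 1560 FPKM in BRQ libraries and 1987 to 2038 in DMSO libraries, and of 7 tested 5 were called lower (Krt8, Krt18, Krt7, Krt19 and Cdh1) and 2 higher (Epcam and Cldn4). Krt18, the highest over all 6 libraries, stood at 453 to 477 FPKM in BRQ libraries and 577 to 596 in DMSO libraries, where Krt8 was above it, and Epcam at 80.4 to 83.0 and 75.6 to 80.0. Cldn7 stayed under 1 FPKM in all 6. The part of these marker differences in the AP-1 results was not tested. Macrophage transcripts were uneven within the BRQ group, with Lyz2 at 3.56, 35.4 and 36.4 FPKM in BRQ replicates 1, 2 and 3 and 4.44 to 5.38 in DMSO libraries. The FPKM of 15 markers summed to 71.4, 140.8 and 135.3 in BRQ replicates 1, 2 and 3, against 36.0 to 39.2 in DMSO libraries. Of these 15 only 5 averaged at least 1 FPKM, and Adgre1 was at 0.235 or less throughout. Csf1r, Fcgr1, Mrc1, C1qa, C1qb, C1qc, Ms4a7 and Laptm5 also stayed under 1 FPKM in all 6 libraries. The FPKM of 15 hepatocyte markers summed to 34.2, 13.6 and 11.9 in BRQ replicates 1, 2 and 3, and to 39.4 to 44.5 in DMSO libraries. The highest of these markers were Cd68 (50.2 to 61.2 FPKM in BRQ libraries and 18.7 to 23.5 in DMSO libraries) and Fah (10.9 to 13.03 and 19.1 to 20.5 FPKM), and no listed marker was at 0 in every library. Fah made up most of the hepatocyte sum in BRQ replicates 2 and 3. Each other hepatocyte marker was higher in BRQ replicate 1 than in BRQ replicates 2 and 3. Alb, for example, had 7.23, 0.0875 and 0 FPKM in BRQ replicates 1, 2 and 3 and 6.62 to 10.2 in DMSO libraries. In such bulk RNA, fewer cells of a type and less RNA per cell cannot be told apart. The markers of fibroblasts summed to 9.86 to 11.02 FPKM in BRQ libraries and 6.79 to 6.91 in DMSO libraries, with Pdgfra the highest, and those of lymphocytes (Cd79a), endothelium (Pecam1) and erythroid cells (Hbb-bs) summed to under 2 FPKM in every library.

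Under BRQ, 6 AP-1 genes rose and 3 fell, with Jund alone at -0.04 on the log2 scale once a trend on gene span is taken off. Fos and Atf3 rose 18.2-fold and 6.52-fold, Fosl1, Jun and Junb 1.87-fold to 2.03-fold, and Jund 1.38-fold, while Fosl2, Fosb and Jdp2 fell 1.55-fold, 1.31-fold and 1.19-fold. Each change passed limma's test on log2(FPKM + 1), which asks for a p under 0.05 after Benjamini-Hochberg adjustment across the tested table, with no overlap between the BRQ and the DMSO libraries for any member. Calls were common in this comparison: 82.4% of tested genes passed, 48.7% higher and 33.7% lower, and 83.7% had libraries that did not overlap, 49% with BRQ higher and 34.8% with BRQ lower. That all 9 members passed is therefore near the background, and the sizes carry more than the count. A ratio of mean FPKM of at least 2 in a called gene was found for Fos, Fosl1 and Atf3, against 10.1% of tested genes, and no member fell as far, against 4.87%. By log2 fold change Fos ranked first and Atf3 at 6 among the 10552 tested genes. The split among all genes follows the scaling of the libraries, with 5143 higher and 3555 lower as deposited, 41.6% higher and 41.2% lower after median-ratio scaling, 40.3% higher and 42% lower after quantile normalization, and 49% higher and 34.2% lower with limma-voom on recovered reads. The same 6 members were higher and the same 3 lower under each of these.

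**Figure D1:**
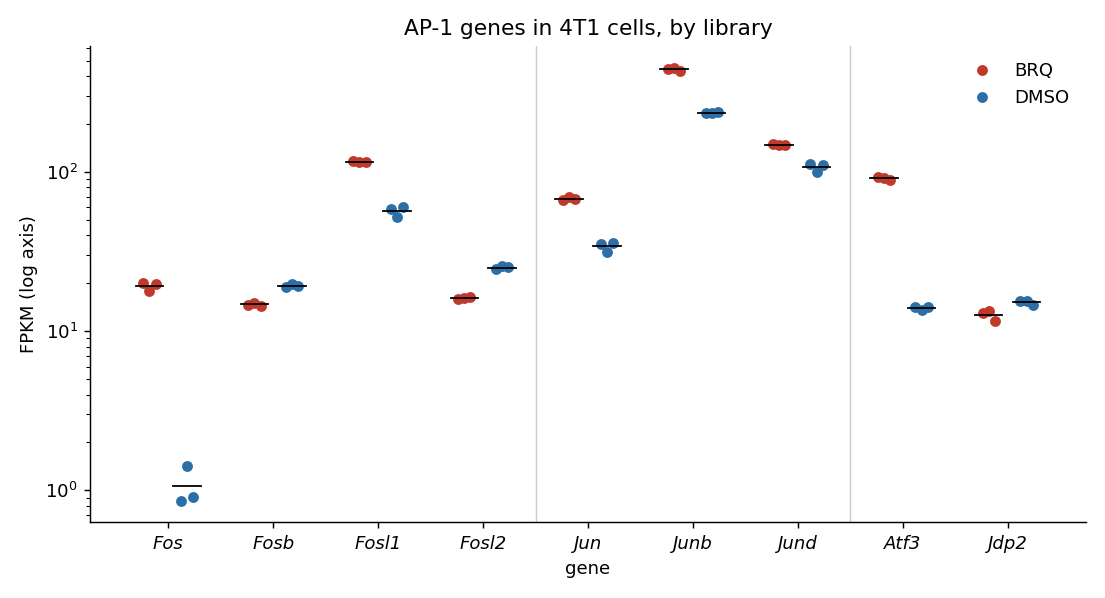
FPKM (log axis) of each AP-1 gene in the 3 BRQ libraries (left of each pair) and the 3 DMSO libraries (right), with points for libraries and lines for means. Fos stands at 18.0 to 20.1 FPKM in BRQ libraries against 0.863 to 1.41 in DMSO libraries, while Fosb, Fosl2 and Jdp2 are lower in BRQ libraries.

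AP-1 and CREB proteins are known to act on promoters of AP-1 genes, so the stretches before the members' starts were searched for their elements. RefSeq's promoter table (GRCm38.p6) held 8 of the 9 members, and Fosl1 had no entry. Shown are the 250 bases before the start of Fos, Atf3 and Jun, which rose, and of Fosb, which fell. Capitals mark TGACG, the core of the CREB and ATF element, or its complement CGTCA, the JUN and ATF variant TGACATCA, and TATAA.
Fos, chr12:85473640-85473889, plus strand: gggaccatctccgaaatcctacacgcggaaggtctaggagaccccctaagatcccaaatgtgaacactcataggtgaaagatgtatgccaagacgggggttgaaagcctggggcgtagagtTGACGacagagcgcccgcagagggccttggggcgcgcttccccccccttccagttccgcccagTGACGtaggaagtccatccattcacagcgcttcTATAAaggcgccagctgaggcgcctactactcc
Atf3, chr1:191183334-191183583, minus strand: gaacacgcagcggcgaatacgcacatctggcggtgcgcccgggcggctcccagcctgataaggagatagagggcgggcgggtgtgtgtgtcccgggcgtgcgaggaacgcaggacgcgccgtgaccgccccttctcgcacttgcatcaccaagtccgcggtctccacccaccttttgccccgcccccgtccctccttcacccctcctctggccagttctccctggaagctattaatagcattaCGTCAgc
Jun, chr4:95052223-95052472, minus strand: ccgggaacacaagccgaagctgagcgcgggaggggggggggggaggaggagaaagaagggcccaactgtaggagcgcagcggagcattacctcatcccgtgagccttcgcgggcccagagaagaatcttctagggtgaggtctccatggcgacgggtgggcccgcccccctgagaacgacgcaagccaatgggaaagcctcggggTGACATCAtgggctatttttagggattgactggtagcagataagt
Fosb, chr7:19310046-19310295, minus strand: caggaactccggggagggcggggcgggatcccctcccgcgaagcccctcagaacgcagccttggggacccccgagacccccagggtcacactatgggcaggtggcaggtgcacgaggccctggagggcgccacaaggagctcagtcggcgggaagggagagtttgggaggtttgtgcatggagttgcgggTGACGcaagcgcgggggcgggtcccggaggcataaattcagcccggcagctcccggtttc
On either strand, TGACG was found in 5 of the 8 members (Fos, Junb, Atf3, Fosb and 1 of the 3 starts of Jdp2), against 17.8% of all 32851 promoter windows in the table. It thus occurred in genes that rose and in genes that fell. In Fos it began 129 and 66 bases before the start, followed by TATAA at 33 bases, a match found in 22.8% of windows. In Atf3 the complement lay 7 to 3 bases before the start, and in Fosb the match began at 60. TGACATCA was found in Jun, 45 bases before the start, and in 2.93% of windows. The AP-1 element TGAGTCA (or TGACTCA, its complement), the full CREB element TGACGTCA, which contains TGACG, and the CArG box bound by SRF were in none of the 8 members and in 4.46%, 1.55% and 1.47% of windows. Member counts are of genes, with a match at any start counted, while the shares are of single windows over the whole promoter table, so the 2 are not alike. A match describes these letters only, and neither elements farther out nor binding were looked at. Fos and Jdp2, which moved in opposite directions, start 125.2 kb apart on chromosome 12 of that build.

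Among the FOS genes, Fos itself had 20.1, 18.0 and 19.8 FPKM in BRQ replicates 1 to 3, against 0.863, 1.41 and 0.904 FPKM in DMSO replicates 1 to 3. It was the lowest of the 9 members in DMSO cells and was above Fosl2, Fosb and Jdp2 in BRQ cells. These values rest on 1262 to 1451 reads in BRQ libraries and 62 to 93 reads in DMSO libraries, so the DMSO level is the least certain of the family. The log2 fold change was 3.31 (SE 0.0975, limma adjusted p = 1.66e-09, n = 3 per group). A log2 fold change on this scale understates the change of a low gene, and limma-voom on the recovered reads gave 4.22 (SE 0.197).

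Fosl1, which encodes FRA1 and was the most abundant FOS transcript in both groups, had 116.6, 116.3 and 115.3 FPKM in BRQ libraries and 58.5, 52.5 and 60.5 FPKM in DMSO libraries. The BRQ libraries lay close together, and DMSO replicate 2 was the lowest of all. The log2 fold change was 1.01 (SE 0.0469, limma adjusted p = 2.39e-08). Fosl2, which encodes FRA2, went the other way. It had 16.04, 16.1 and 16.5 FPKM in BRQ libraries and 24.5, 25.6 and 25.3 FPKM in DMSO libraries, with a log2 fold change of -0.60 (SE 0.0375, adjusted p = 1.74e-07). Fosb, whose full-length and shortened products both pair with JUN proteins, had 14.7, 15.04 and 14.5 FPKM in BRQ libraries and 18.8, 19.7 and 19.3 FPKM in DMSO libraries (log2 fold change -0.37, SE 0.0395, adjusted p = 1.08e-05). The FOS genes thus divided evenly, with 2 higher and 2 lower. With the trend on gene span taken off, the changes were 0.60 for Fosl1 and -0.80 for Fosb. Within a library, the ratio of Fos to Fosb was 1.31 ± 0.101 in BRQ cells and 0.0549 ± 0.0147 in DMSO cells (SD, n = 3 each), and that of Fosl1 to Fosl2 was 7.17 ± 0.148 and 2.28 ± 0.197.

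All 3 JUN genes were higher under BRQ, but with the trend on span taken off Jund was not, and the log2 fold changes of Jun and Junb were 0.46 and 0.41. Junb was the most abundant member in every library, with 441, 453 and 432 FPKM in BRQ libraries and 235, 236 and 237 FPKM in DMSO libraries (log2 fold change 0.90, SE 0.0242, limma adjusted p = 1.01e-09). Jun, the classical partner of FOS, had 66.7, 69.4 and 67.4 FPKM in BRQ libraries and 35.3, 31.3 and 35.9 FPKM in DMSO libraries (log2 fold change 0.97, SE 0.0489, adjusted p = 4.06e-08). Both genes moved by nearly the same factor, so that the ratio of Jun to Junb was 0.154 ± 0.00249 in BRQ cells and 0.145 ± 0.0105 in DMSO cells (SD, n = 3 each), with overlapping libraries. Jund, which is made at a steady level in many cells, had 150.4, 147.5 and 147.2 FPKM in BRQ libraries and 112.5, 99.7 and 110.7 FPKM in DMSO libraries (log2 fold change 0.46, SE 0.0426, adjusted p = 3.30e-06). Its rise was the smallest of the 6, and the ratio of Junb to Jund was 2.98 ± 0.0802 in BRQ cells and 2.2 ± 0.151 in DMSO cells. DMSO replicate 2, the shallowest library, held the lowest DMSO value of Jun, Jund, Fosl1 and Atf3 and the highest of Fos, Fosb and Fosl2, and every member kept its direction and its call without it.

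Atf3, which stress pathways induce, had 92.9, 91.1 and 89.3 FPKM in BRQ libraries and 14.1, 13.6 and 14.2 FPKM in DMSO libraries. Its rise of 2.62 on the log2 scale had an SE of 0.0336 and the lowest limma adjusted p of the family, 1.02e-10. By level it ranked 4 of the 9 members in BRQ cells, between Fosl1 and Jun, and 8 of 9 in DMSO cells. Jdp2, the closest relative of Atf3 in sequence, had 13.1, 13.4 and 11.6 FPKM in BRQ libraries and 15.6, 15.4 and 14.6 FPKM in DMSO libraries. The groups did not overlap but lay near each other, and the log2 fold change of -0.24 (SE 0.0577, adjusted p = 0.00298) was the smallest of the family. The ratio of Atf3 to Jdp2 was 7.19 ± 0.461 in BRQ cells and 0.922 ± 0.0475 in DMSO cells (SD, n = 3 each).

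With the BRQ group reduced to replicate 1, the library with fewer macrophage and more hepatocyte transcripts, the log2 fold changes were 3.37 for Fos, 2.65 for Atf3, 1.02 for Fosl1, 0.95 for Jun, 0.90 for Junb and 0.48 for Jund. They were -0.62 for Fosl2, -0.37 for Fosb and -0.20 for Jdp2, and all 9 were called by limma, with adjusted p between 8.69e-07 and 0.0286, the lone library being assumed to vary like the DMSO libraries. In that library the macrophage sum was 71.4 FPKM and the epithelial sum 1559 FPKM, both still outside the range of the DMSO libraries. Of the 5 tested macrophage markers, Cd68 (50.2 FPKM) and Cd14 (12.4) were above their DMSO ranges, 18.7 to 23.5 and 6.13 to 6.64. Lyz2 (3.56 FPKM) was below its DMSO range, 4.44 to 5.38. Ctss (2.4 FPKM) and Tyrobp (0.66) were inside theirs, 1.99 to 2.75 and 0 to 0.725. Relative to the median of all tested genes the changes were 3.19 for Fos, 2.50 for Atf3, 0.90 for Fosl1, 0.86 for Jun, 0.79 for Junb, 0.35 for Jund, -0.36 for Jdp2, -0.48 for Fosb and -0.72 for Fosl2.

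The summed AP-1 transcripts were 928 ± 13.5 FPKM in BRQ cells and 509.7 ± 12.2 FPKM in DMSO cells (SD, n = 3 each), a ratio of 1.82. FPKM are per length, so levels of different genes can be added. JUN genes made up 70.9% ± 0.335 of the sum in BRQ cells and 74.1% ± 0.142 in DMSO cells, FOS genes 17.9% ± 0.298 and 20.1% ± 0.276, and Atf3 with Jdp2 11.2% ± 0.171 and 5.73% ± 0.166. Atf3 accounted for the last difference, at 9.82% ± 0.143 in BRQ cells and 2.74% ± 0.00722 in DMSO cells. Fos remained a small part of the sum, 2.08% ± 0.145 in BRQ cells and 0.209% ± 0.0661 in DMSO cells. Junb was 47.6% ± 0.517 and 46.3% ± 1.18 of it. No test was made of these sums, since the members were chosen with results known. The order of levels in BRQ cells was Junb, Jund, Fosl1, Atf3, Jun, Fos, Fosl2, Fosb and Jdp2, and in DMSO cells Junb, Jund, Fosl1, Jun, Fosl2, Fosb, Jdp2, Atf3 and Fos. Within a group, no 2 neighbours in these orders had overlapping libraries.

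**Figure D2:**
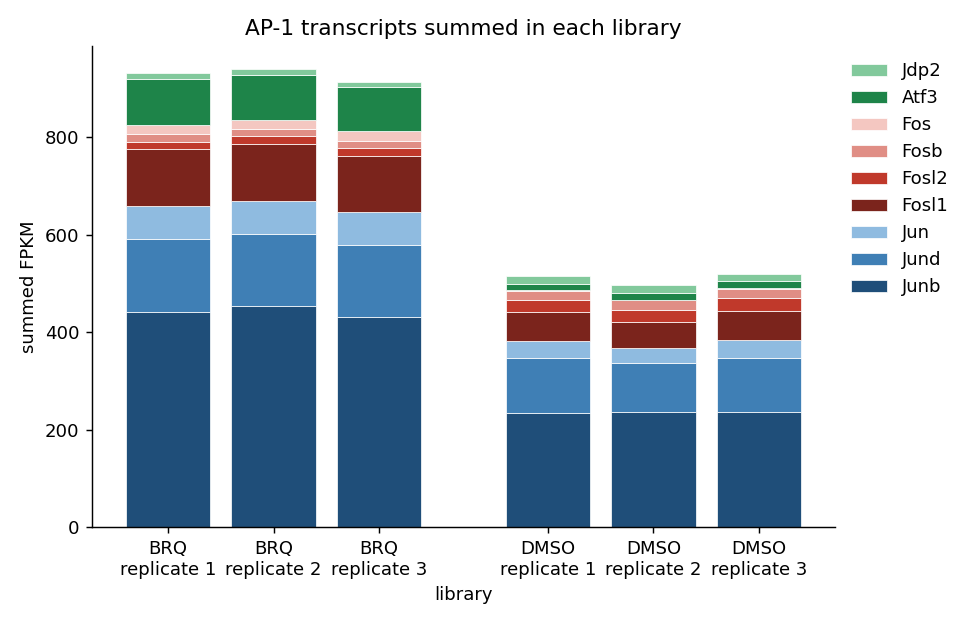
Summed FPKM of the 9 AP-1 genes in each BRQ library (left) and each DMSO library (right), stacked by gene. Each BRQ library sums to 913 to 940 FPKM and each DMSO library to 496 to 518, with Junb the largest part in all 6 and Atf3 much wider in the BRQ libraries.

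AU-rich elements in the 3' UTR, where proteins that speed or slow mRNA decay bind, were counted as ATTTA in GENCODE M21 transcripts. Fos had 4 in 815 bases, or 4.91 per kb, a density reached by 6.37% of the tested genes with a 3' UTR. At least 4 copies were found in 29.9% of these genes. Junb had 4.12 per kb, Jun 3.24 and Atf3 2.53, against a median of 1.33 over 10284 tested genes. These 3 densities were reached by 9.82%, 17.2% and 26.3% of those genes. Jund had 1.88, Fosl2 1.72, Fosl1 1.57, Fosb 0.434 and Jdp2 0. The length behind the FPKM of Jund, 2906 bases, exceeds its whole span in GENCODE M21, so its counted 3' UTR may be incomplete. The 5 members of highest density all rose, Jund not with the trend on span taken off, and the 2 of lowest density both fell. Between them the order was mixed, with Fosl2, which fell, above Fosl1, which rose. A link between density and change was not tested, among the members or over all genes. By number of copies Fosl2 was the highest, with 8 in its long 3' UTR, and Fos and Fosl2 were the members with a longer element, TTATTTA followed by A or T at both next bases, found in 18.1% of tested genes. The following windows of 28 bases show the densest stretch of Fos, where 2 copies overlap, and the sole copy of Fosb, with ATTTA in capitals.
Fos, bases 643 to 670 of the 3' UTR: tgtgttttcaATTTATTTAttaagatgg
Fosb, bases 1650 to 1677 of the 3' UTR: ccacccccagctATTTAtccctttcctg

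Log2 fold changes of all genes declined with the genomic span of a gene in GENCODE M21, and several members are short. In tested genes under 5 kb, among them Fos, Jun, Junb and Jund, the median log2 fold change was 0.51, with 5th and 95th percentiles of -0.46 and 1.56. Fos stood far above this range. Jun and Junb stood inside it and above its median, and Jund (1.67 kb) below its median. The recovered reads put the length behind the FPKM of Jund at 2906 bases, above this span. For Jun the length was 3219 bases, slightly above its span of 3.19 kb. These lengths assume that the FPKM were scaled to the summed recovered reads. The gene models behind the FPKM may thus differ from those of GENCODE M21, and the span of Jund carries that uncertainty. In genes of 5 to 10 kb the median was 0.43 (-0.54 to 1.35), with Fosl1 above it and Fosb close to the lower end. Fosl2 (22.04 kb) lay at the 5th percentile, -0.60, of genes of 10 to 30 kb. Atf3 (47.7 kb) belonged to the genes of 30 to 100 kb, whose median was -0.10 and whose 95th percentile was 0.73, and stood far above both, whereas Jdp2 (40.9 kb) lay near that median. With the trend on span taken off, limma called 39.1% of genes higher and 39.1% lower, and the changes were 2.81 for Fos, 2.68 for Atf3, 0.60 for Fosl1, 0.46 for Jun, 0.41 for Junb, -0.24 for Jdp2, and -0.80 for both Fosb and Fosl2, all called. The change of Jund was then -0.04 (SE 0.0426, adjusted p = 0.379, range over its alternatives 2.79e-13 to 0.379). Its change on the FPKM scale was thus close to that of other genes of its span in GENCODE M21.

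**Figure D3:**
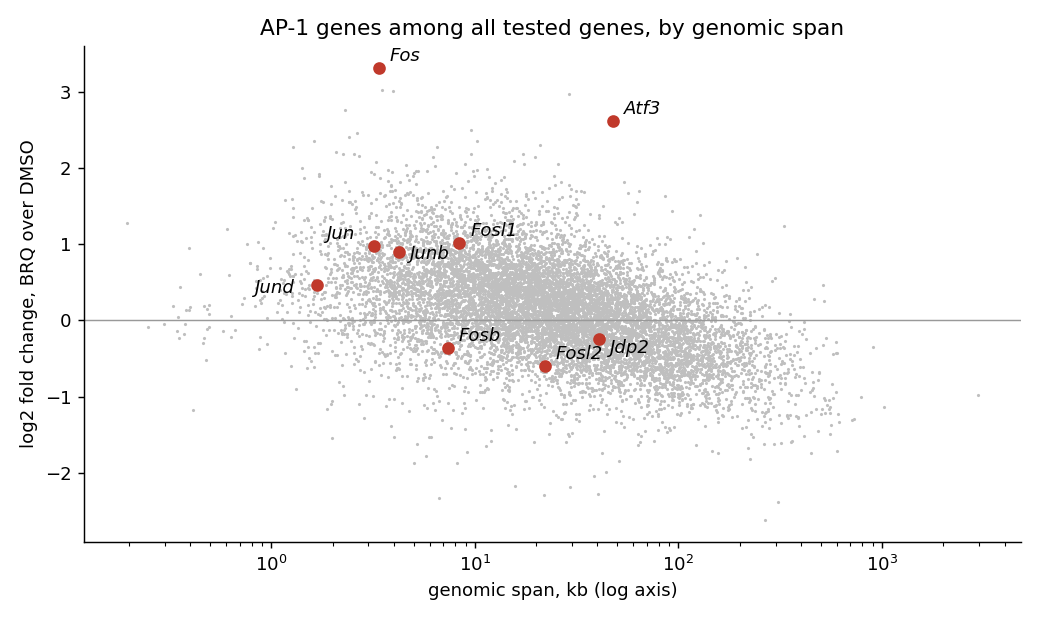
Log2 fold change, BRQ over DMSO, against genomic span in kb (log axis) for all tested genes with a span (grey) and the AP-1 genes (red). Fos and Atf3 lie above the cloud at their span, Jun, Junb, Fosl1 and Jund lie within it, and Fosb and Fosl2 lie along its lower side.

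**Figure D4:**
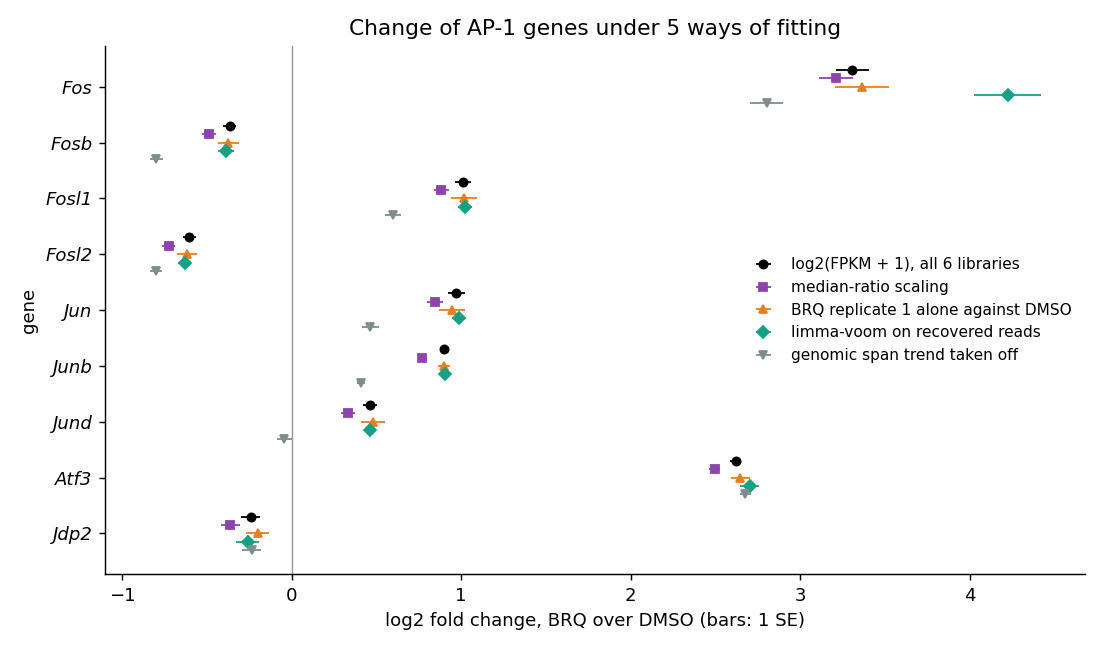
Log2 fold change of each AP-1 gene, BRQ over DMSO, with 1 SE, under 5 ways of fitting. All 9 keep their side of 0 in each, except Jund, which is at -0.04 once the trend on span is taken off. Fos is at 3.31 on the FPKM scale and 4.22 on recovered reads.

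Some members share genomic ground with another gene, and the strand setting of the counting is not stated. Junb overlaps Prdx2, a peroxiredoxin gene on the other strand, which had 217, 214 and 208 FPKM in BRQ libraries and 165, 172 and 170 FPKM in DMSO libraries (log2 fold change 0.34). Fosl1 overlaps Ccdc85b on the other strand, at 31.0 to 31.3 FPKM in BRQ libraries and 17.3 to 19.3 FPKM in DMSO libraries (log2 fold change 0.75). Reads of these pairs may be shared, so the levels of Junb and Fosl1 carry that uncertainty. Jun, Jund, Atf3 and Jdp2 overlap noncoding RNA genes on the other strand in the annotation.

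Of the bZIP genes marked as such in the deposited annotation, 37 were tested. Of the 28 that are no members, 9 were higher, 10 lower and 9 not called, against 48.7% higher and 33.7% lower among all tested genes, with a median of -0.05 and changes between -0.92 and 1.35. Fos and Atf3 exceeded all 28. The highest of these was Ddit3, which encodes the stress factor CHOP and was named after its values were seen. In the narrower list of AP-1-like genes, 8 of 12 were tested, 3 were higher and 1 lower. Maff, a small MAF protein gene without an activation domain, had 39.7, 41.0 and 39.8 FPKM in BRQ libraries and 15.2, 15.6 and 15.5 FPKM in DMSO libraries (log2 fold change 1.32, SE 0.0346, limma adjusted p = 9.32e-10). Mafk had 13.3 ± 0.372 FPKM in BRQ cells and 8.31 ± 0.646 FPKM in DMSO cells (SD, n = 3 each), and Mafa, named after its values were seen, rose to 2.52 ± 0.234 FPKM, against 1.18 ± 0.1. Mafg, their close relative, had 22.6 ± 0.754 and 21.7 ± 0.293 FPKM and was not called (adjusted p = 0.199). Atf7, whose product pairs with JUN proteins, fell to 5.29 ± 0.274 FPKM in BRQ cells, against 10.6 ± 0.517 FPKM in DMSO cells, while its relative Atf2 had 7.69 ± 0.132 and 7.64 ± 0.317 FPKM (adjusted p = 0.878).

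Kinases and factors that act on AP-1 genes and proteins moved in both directions. Of 37 tested genes of 41 listed, 13 rose and 16 fell, against 48.7% higher and 33.7% lower among all tested genes, and 9 rose and 22 fell after median-ratio scaling, against 41.6% and 41.2%, with a median of -0.08 and no change above 0.67 or below -0.91. Hras had 35.4 ± 1.07 FPKM in BRQ cells and 21.8 ± 0.849 FPKM in DMSO cells (SD, n = 3 each). Elk1, a ternary complex factor that activates Fos with SRF, had 13.9 ± 0.459 and 9.08 ± 0.551 FPKM. In the p38 branch 5 of 8 genes rose and 1 fell, led by the kinase genes Map2k3 (87.5 ± 1.32 and 59.4 ± 1.51 FPKM) and Mapk13 (80.1 ± 1.27 and 57.9 ± 1.95 FPKM). Creb1, whose product binds CREB elements, fell to 6.75 ± 0.33 FPKM in BRQ cells, against 13.6 ± 0.868 FPKM in DMSO cells (log2 fold change -0.91, SE 0.0586, limma adjusted p = 2.23e-07). The SRF coactivator genes Mrtfb and Mrtfa fell too, to 2.51 ± 0.197 and 10.9 ± 0.179 FPKM, against 5.05 ± 0.223 and 16.5 ± 0.471 FPKM in DMSO cells, and so did Elk3 (23.9 ± 0.533 and 34.4 ± 1.41 FPKM). With the trend on span taken off, Mrtfa was no longer called by limma (-0.09, adjusted p = 0.0883). These are transcript levels, and phosphorylation was not measured.

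Genes that act on AP-1 transcripts or proteins were mostly lower. Of 17 tested, 12 fell and 4 rose, against 33.7% lower and 48.7% higher among all tested genes, with a median of -0.30. With the trend on span taken off, 9 fell and 3 rose, against 39.1% lower and 39.1% higher. Among 8 genes of AU-rich element binding proteins, Tia1 fell to 2.67 ± 0.0932 FPKM in BRQ cells, against 15.8 ± 0.834 FPKM in DMSO cells (SD, n = 3 each; log2 fold change -2.19, SE 0.056, limma adjusted p = 9.08e-10). Hnrnpd, which encodes the decay factor AUF1, fell to 12.7 ± 0.467 FPKM, against 37.6 ± 0.915. The ZFP36 family, which promotes decay of such transcripts, was divided. Zfp36 had 27.6 ± 0.288 FPKM in BRQ cells and 10.6 ± 0.664 FPKM in DMSO cells, Zfp36l1 44.5 ± 2.24 and 22.7 ± 0.375, and Zfp36l2 42.0 ± 0.9 and 86.7 ± 2.66. All 4 genes of ubiquitin ligases, or parts of them, that target JUN (Fbxw7, Cop1, Det1 and Itch) fell, beside 33.7% of all tested genes. Det1 fell by 1.26 and the others by 0.22 to 0.30 on the log2 scale. The 4 were named after their values were seen, and their values with the trend on span taken off are not given here. The corepressor gene Ncor1 fell to 10.8 ± 0.668 FPKM, against 22.98 ± 0.993, while Cops5, a JUN coactivator gene, had 63.9 ± 1.4 FPKM in BRQ cells and 50.9 ± 1.32 FPKM in DMSO cells. The change of Cops5 was -0.009 with the trend on span taken off.

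Known AP-1 target genes were more often higher than lower. Of 32 tested, 22 rose and 8 fell, against 48.7% and 33.7% of all tested genes, with a median of 0.36, and the split was 18 to 11 after quantile normalization and 16 to 12 with the trend on span taken off. Of 10 cytokine and growth factor genes 9 rose and none fell. Csf2, which encodes GM-CSF, had 37.2, 36.8 and 36.3 FPKM in BRQ libraries and 6.15, 6.15 and 6.01 FPKM in DMSO libraries (log2 fold change 2.41, SE 0.0384, limma adjusted p = 1.28e-10). Tnf had 6.54, 16.98 and 16.1 FPKM in BRQ replicates 1, 2 and 3 and 1.79, 1.57 and 0.923 FPKM in DMSO libraries (2.46, SE 0.288, adjusted p = 2.02e-05). Macrophages make Tnf as well, and the sum of their markers, most of them low, was highest in the same 2 BRQ libraries. With BRQ replicate 1 alone the change of Tnf was 1.65. The part of macrophages in the change was not tested. Hbegf, a ligand of the EGF receptor, had 109.7 ± 2.44 FPKM in BRQ cells and 47.4 ± 1.27 FPKM in DMSO cells (SD, n = 3 each), and Hmox1, which encodes heme oxygenase, 64.0 ± 0.513 and 28.5 ± 2.15.

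Of 8 protease and protease inhibitor genes 7 rose, by no more than 0.83 on the log2 scale, and Mmp10 was not called. Among genes of adhesion, matrix and other functions 8 of 14 fell and 6 rose. Beside both counts, 48.7% of all tested genes were higher and 33.7% lower. The cyclin D1 gene Ccnd1 fell to 175.6 ± 3.43 FPKM in BRQ cells, against 283.8 ± 8 FPKM in DMSO cells (SD, n = 3 each; log2 fold change -0.69, SE 0.0282, limma adjusted p = 1.12e-08). The connexin gene Gja1 fell to 37.7 ± 1.02 FPKM, against 65.4 ± 4.91, the DNA methyltransferase gene Dnmt1 to 47.5 ± 0.36, against 72.1 ± 1.77, and the chromatin protein gene Hmga1 to 107.5 ± 1.49, against 156.6 ± 4.34. Target genes thus moved both ways, as the members and the tested genes at large did, and a link between targets and members was not tested.

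**Figure D5:**
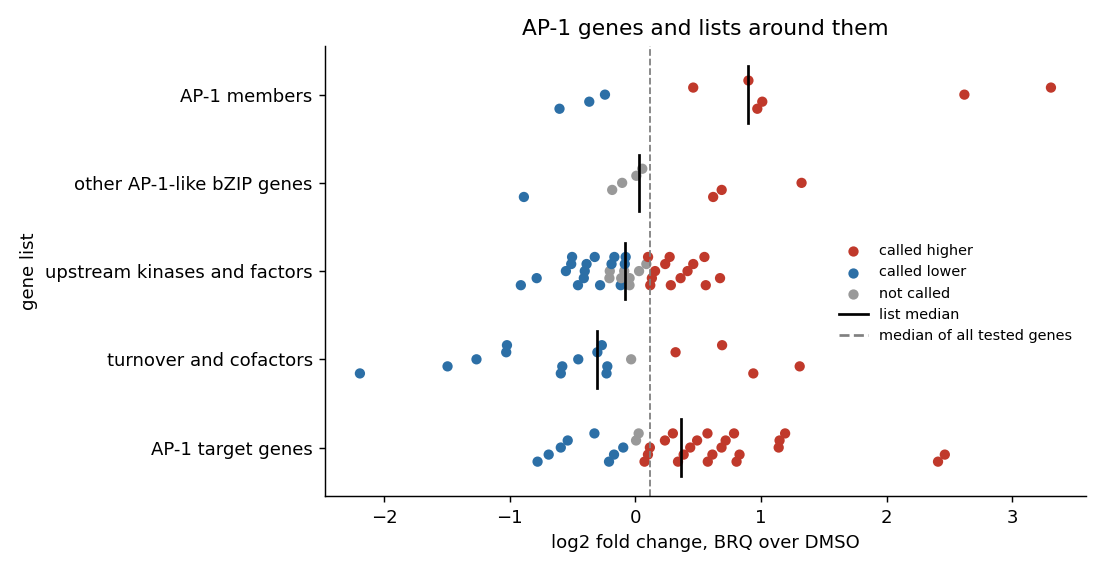
Log2 fold change, BRQ over DMSO, of each tested gene in 5 lists, with red points for genes called higher, blue for genes called lower and grey for the rest. Black lines are list medians, 0.90 for AP-1 members, 0.36 for AP-1 target genes and -0.30 for turnover and cofactors, and the dashed line is the median of all tested genes, 0.12.

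By the root mean square difference of centred log2(FPKM + 1) over the 6 libraries, the genes most like Fos were Btg2 (0.212), an antiproliferative gene, Hexim1 (0.215), which holds P-TEFb inactive, Dgat2 (0.2875), of triglyceride synthesis, and Arl4d (0.3505), a small GTPase gene. Btg2 had 15.7, 16.2 and 16.1 FPKM in BRQ libraries and 1.04, 1.04 and 1.23 FPKM in DMSO libraries. Those most like Fosl2, the member with the largest fall, were Hdac4 (0.0108), a histone deacetylase gene, Dnmt1 (0.0145), Ddx6 (0.01505), a helicase gene of mRNA decay, and Primpol (0.0154), a primase gene. Ddx6 had 20.985, 21.1 and 21.9 FPKM in BRQ libraries and 32.5, 34.1 and 32.7 FPKM in DMSO libraries. By rise, Hexim1, Btg2, Dgat2 and Arl4d ranked 2, 3, 4 and 5 among all tested genes, after Fos. Likeness over 2 groups of close libraries thus mostly repeats the size of the change and does not show joint regulation. It is on the log2(FPKM + 1) scale, which narrows the change of a low gene. Hdac4 had 1.36 ± 0.0403 FPKM in BRQ cells and 2.6 ± 0.0394 FPKM in DMSO cells (SD, n = 3 each), a fall of 1.91-fold, against 1.55-fold for Fosl2. With the trend on span taken off, Hdac4 was no longer called.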

How the data were processed

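RNA sequencing of 6 libraries was analysed. Per the labels' protocols, RNA came from a TRIzol extraction and libraries followed Illumina's standard. The authors deposited FPKM per gene without pooling replicates. The submitters' processing notes name fastp, HTSeq and the build GRCm39. No aligner, annotation, strand setting or version is given in the sources used here. The table also held 8 columns of no sample of this series, which were not used. Groups came from the titles.

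The 10552 genes averaging 1 FPKM or more entered a two-sided limma fit (version 3.58.1 in R 4.3.3; lmFit and eBayes, trend on, no covariate) of log2(FPKM + 1), and Benjamini-Hochberg adjustment ran over all of them. Whole reads, within 0.03, were recovered for all of them from the steps between values, and used for depth and for limma-voom. Both steps were tested on simulated data. Genomic spans (10369 genes) and 3' UTRs came from GENCODE M21 and promoters from RefSeq, both on GRCm38, so no coordinates of the authors' build are printed.

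The members and gene lists were chosen with earlier results of these data known, so lists are described and not tested. Named are all members, the up to 4 called genes with the largest rise and fall of each of 4 lists with at least 5 FPKM in the higher group, the 4 genes most like Fos and most like Fosl2, the highest marker of each cell type, and genes marked as named later. A gene that this rule names is not reported here. Alternatives were a pseudocount of 0.1, no filter, a filter at 5 FPKM, median-ratio scaling, quantile normalization, a robust prior, a replicate block, each library left out, BRQ replicate 1 alone, limma-voom and the span trend taken off.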

Additional observations from a re-analysis of the deposited data

How the results depend on the processing

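Each of the 9 members except Jund kept its direction and its call under all 16 alternatives. Jund was at -0.0424 with the trend on genomic span taken off (the alternative subtracts the level of genes of its span) and kept its call under the other alternatives. Relative to 3.31, the change of Fos ranged from 2.81 to 4.22. Same-numbered libraries did not deviate together (correlations of deviations 0.00398, -0.0324 and -0.0345, against -0.00352 to 0.0367 between libraries of unlike number). Such correlations cannot show whether libraries were handled in pairs. The replicate block gave 5112 higher and 3507 lower genes, with 6 members higher and 3 lower. Of the other AP-1-like bZIP genes, the number called lower was 1 with all libraries, 2 after median-ratio scaling and after quantile normalization, 3 with the span trend taken off, and 1 to 2 with a library left out, being 2 without BRQ replicate 1 and without DMSO replicate 2. Upstream kinases and factors had 8 genes higher after quantile normalization, against 13. The causes were not tested. The change of Cops5 was -0.009 with the span trend taken off, under which Mrtfa and Hdac4 lost their calls. Genes averaging under 5 FPKM, such as Hdac4, had no value under the filter at 5 FPKM. Depth limits the level of Fos in DMSO cells, which rests on 62 to 93 reads, and Jdp2 had the weakest call (adjusted p up to 0.0286).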
